A study of Mus musculus with 8 samples.

Results

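The keratin-associated protein genes (Krtap) outside chromosome 16 were examined in mouse forepaw skin after an injection of PACAP, the pituitary adenylate cyclase-activating polypeptide. The members were every non-control probe whose gene name starts with Krtap and whose mm9 position lies on a chromosome other than 16. There were 36 such probes for 31 genes, among 39429 probes for 29608 gene names, and another 28 Krtap probes for 22 genes lay on chromosome 16. Of the 36 probes, 23 lay on chromosome 11 (the Krtap1, 2, 3, 4, 9, 16, 17, 29 and 31 subfamilies), 8 on chromosome 7 (Krtap5), 3 on chromosome 10 (Krtap10 and Krtap12) and 2 on chromosome 1 (Krtap28-13). C57BL/6 wild-type (WT) mice and Adcyap1r1-/- mice, which lack the PACAP receptor PAC1R (KO), were 9 to 10 weeks old. Each footpad received 5 µL of saline with 0.1% BSA, either alone (vehicle) or with 1e-07 mol/L PACAP, under anaesthesia, and skin was taken at 30 or 60 min. The 8 RNA samples (vehicle and PACAP, WT and KO, 30 and 60 min) were hybridised as 4 pairs on Agilent arrays that read the dyes Cy3 and Cy5 side by side. Every pair went onto 2 arrays, the second with the dyes exchanged. The 2 arrays are 1 replicate, so each comparison holds 1 pair of RNA samples. The WT pairs shared a slide and the KO pairs shared a second slide, and the effects of genotype and of slide cannot be told apart. The design text names 6 mice of each genotype, but the sources used here do not say which mice gave each RNA sample or whether their RNA was mixed.

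Keratin-associated proteins fill the space between the keratin filaments of the hair shaft and link them through disulfide bonds. Most are short, encoded in a single exon and rich in cysteine (high sulfur or ultrahigh sulfur proteins) or in glycine and tyrosine. They are made late, in the cells of the growing follicle that turn into the hair cortex and the hair cuticle. In hair, Krtap1, Krtap2, Krtap3, Krtap4 and Krtap9 genes are known from the cortex, and Krtap5, Krtap10, Krtap12 and Krtap17 genes mainly from the cuticle. The footpad itself has no hair, whereas the furred skin around it has.

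Some probes held an open frame rich in cysteine codons, although no annotation used here placed them in the coding part or a UTR. In 8 of the 36 probes a reading frame without a stop codon held at least 3 cysteine codons. They are shown here for Krtap5-5 (chr7:149415298-149415357, minus strand, 9 of 20 codons), Krtap5-1 (chr7:149482586-149482644, minus strand, 8 of 19) and Krtap4-8 (chr11:99641467-99641526, minus strand, 7 of 19). The sequences are the array's own 60-base probes in mm9, 5′ to 3′, with the TGT and TGC codons of that frame in capitals (the file gives the Krtap5-1 probe a span of 59 bases):
Krtap5-5: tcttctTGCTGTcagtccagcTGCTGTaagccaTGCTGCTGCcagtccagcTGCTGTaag
Krtap5-1: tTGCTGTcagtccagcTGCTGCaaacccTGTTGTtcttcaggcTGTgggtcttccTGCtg
Krtap4-8: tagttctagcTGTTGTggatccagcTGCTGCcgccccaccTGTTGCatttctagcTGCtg
The Krtap5-5 and Krtap5-1 probes share an unbroken run of 21 bases. The Krtap4-8 probe shares at most 13 bases in a run with the probe of any other Krtap gene. In 3 probes, all of Krtap5 genes, the longest run shared with the probe of another Krtap gene reached 20 bases or more. Signals of the Krtap5 paralogs may therefore hold RNA of each other.

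The genes also share a feature in front of their start. RefSeq promoter sequences (GRCm38.p6) were held for 27 of the 31 genes. The letters TATAAA were searched on the gene's own strand, starting 45 to 16 bases before the start. They were found in 21 of 27, against 9 of 21 Krtap promoters of chromosome 16 and 2.22% of all 32851 promoters. On either strand and anywhere in the 250 bases before the start, they were found in 24 of 27. There, 15 of 21 Krtap promoters of chromosome 16 and 12.4% of all promoters held them. The letters TGACGTCA, the palindromic cAMP response element, were in 0 of 27 and in 1.55% of all promoters, and the wider TGACGTNA, which takes in those letters, was in 1 of 27 (Krtap5-5) and in 2.52% of all. Both counts are near the share of all promoters. The 100 bases before the start are shown, with TATAAA in capitals, for the genes that the values below turn on, which are Krtap1-5 (chr11:99581017-99581116), Krtap16-1 (chr11:99986594-99986693), Krtap17-1 (chr11:99993995-99994094), Krtap5-5 (chr7:142229972-142230071) and Krtap10-4 (chr10:77827071-77827170), all on the minus strand:
Krtap1-5: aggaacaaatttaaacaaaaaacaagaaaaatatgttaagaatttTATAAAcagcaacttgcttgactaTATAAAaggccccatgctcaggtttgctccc
Krtap16-1: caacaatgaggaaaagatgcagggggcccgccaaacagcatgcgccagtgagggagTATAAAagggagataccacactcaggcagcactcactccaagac
Krtap17-1: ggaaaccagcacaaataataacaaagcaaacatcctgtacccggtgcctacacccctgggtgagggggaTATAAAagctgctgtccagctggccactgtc
Krtap5-5: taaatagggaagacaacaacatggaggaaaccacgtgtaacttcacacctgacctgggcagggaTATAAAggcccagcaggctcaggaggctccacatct
Krtap10-4: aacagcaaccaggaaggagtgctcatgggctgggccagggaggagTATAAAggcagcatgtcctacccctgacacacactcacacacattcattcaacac
The last TATAAA began 31 bases before the start in Krtap1-5 and Krtap17-1, at -36 in Krtap5-5, at -44 in Krtap16-1 and at -55 in Krtap10-4. A match is a description of these letters and not of a bound factor.

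The arrays held 44397 spots each, with 78.6% to 94.5% of spots well above background in the red and 54.0% to 65.3% in the green channel. The 1 pair of RNA samples and 2 arrays of each comparison limit the precision of every value. Of the 36 members, 30 were well above background on both arrays in all 8 RNA samples. The exceptions were Krtap2-4, Krtap4-6, Krtap9-5, Krtap29-1, Krtap31-1 and Krtap31-2, and Krtap29-1 reached that mark on both arrays in none of the samples. The probe for Adcyap1r1, the deleted gene, had log2 levels of 8.27 to 8.76 in the 4 WT samples and 7.91 to 8.56 in the 4 KO samples, and whether it lies in the deleted part is not given in the sources used here. Palm keratin Krt9 stood at log2 levels of 15.03 to 15.70, so the samples carried the marker of palm epidermis. Of 22 measured genes of the hair cortex and cuticle, 21 were well above background on at least 1 array in every sample, so hair follicle RNA was present too.

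At 60 min in WT mice, the Krtap genes rose together with PACAP. Probes were counted as changed where the mean ratio of PACAP to vehicle over both arrays was at least 2-fold or at most 0.5-fold, with the same direction and a software p below 0.01 on each array. That p describes 1 array and not animals. By this rule 27 of 36 members (23 genes) rose and 0 fell, against 0.583% of all probes that rose and 0.109% that fell. The median ratio of the members was 3.37-fold (1.75 on the log2 scale, all probes 0.0), and 35 of 36 lay above 0. Krtap16-1 rose 9.67-fold (11 and 8.48 on the 2 arrays) by the software's ratio and 4.08-fold on normexp and loess ratios, where Krtap1-5 was the highest at 6.12-fold. By the software's ratio Krtap1-5 rose 8.20-fold (8.14 and 8.27), Krtap1-3 rose 5.96-fold, Krtap3-1 5.54-fold and Krtap4-2 5.30-fold. On chromosome 11, all 3 Krtap1 probes, 7 of 8 Krtap4 probes, 2 of 3 Krtap3 and 2 of 3 Krtap9 probes passed, as did Krtap2-4, Krtap16-1 and Krtap17-1, whereas Krtap31-1, Krtap31-2 and Krtap29-1 did not. On chromosome 7, 7 of 8 Krtap5 probes passed, with a median of 3.42-fold. Krtap12-1 rose 4.70-fold, Krtap17-1 5.12-fold and Krtap28-13 3.66-fold by its brighter probe.

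At 30 min in KO mice, 20 of 36 members (17 genes) rose and 0 fell, against 0.601% and 0.107% of all probes. The median was 2.18-fold, 1.12 on the log2 scale. All 20 were among the 27 that rose at 60 min in WT mice. Krtap12-1 rose 6.61-fold (7.70 and 5.68 on the 2 arrays) by the software's ratio and stood at 2.50-fold on normexp and loess ratios, where Krtap17-1 was the highest at 4.91-fold. By the software's ratio Krtap5-5 rose 5.55-fold, Krtap17-1 5.53-fold, Krtap5-1 5.18-fold and Krtap28-13 4.99-fold. The ultrahigh sulfur genes of the Krtap4 subfamily stood lower here, with 1 of 8 probes past the rule (Krtap4-7, 2.14-fold) and a median of 1.65-fold, against 3.39-fold in WT mice at 60 min. This difference was not tested.

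At 30 min in WT mice, the members divided. There were 3 that rose, Krtap16-1 (4.51-fold), Krtap31-1 (3.19-fold) and Krtap12-1 (2.64-fold), and 1 that fell, Krtap1-5 (0.342-fold), against 0.254% of all probes that rose and 0.0964% that fell. Of these rises, the one of Krtap16-1 also passed on normexp and loess ratios, at 2.29-fold, where Krtap12-1 stood at 1.83-fold and Krtap31-1 at 1.42-fold. The Krtap31-1 value was uneven, with 5.90-fold on the first array and 1.72-fold on the second. The median of all members was 0.974-fold. Of the 8 Krtap5 probes, 7 lay above 0 with a median of 1.72-fold over the 8, both Krtap28-13 probes lay above 0 (1.5-fold and 1.47-fold), and Krtap17-1 stood at 1.67-fold. All 3 Krtap3 probes, all 3 Krtap9 probes, 7 of 8 Krtap4 probes and Krtap2-4 lay below 0, and the eighth, Krtap4-6, had its ratio set to 0 on both arrays. Their medians were 0.864-fold for Krtap3, 0.867-fold for Krtap9 and 0.860-fold for Krtap4, and Krtap4-2 stood at 0.521-fold. Of the subfamilies known from the cuticle, Krtap5 (except the dimmer Krtap5-5 probe at 0.855-fold), Krtap12-1 and Krtap17-1 lay above 0. The Krtap10 genes lay below it, at 0.919-fold and 0.954-fold. Of those known from the cortex, Krtap1-3 alone lay above 0, at 1.20-fold. Krtap12 and Krtap17 hold 1 probe each, and the Krtap5 probes may hold RNA of each other. Krtap16, Krtap28, Krtap29 and Krtap31 are assigned to neither here. This division was seen in the values and was not tested.

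At 60 min in KO mice, the mean ratios of all 36 members lay below 0, and the shift was small. In 3 members the 2 arrays had opposite signs, and the share of all probes below 0 was not counted. The median was 0.797-fold, -0.33 on the log2 scale, 0 members rose and 1 fell, against 0.142% of all probes that rose and 0.15% that fell. Krtap1-5 was the member that fell, at 0.372-fold (0.324 and 0.428 on the 2 arrays). The other 35 stood between 0.607-fold (Krtap1-4) and 0.951-fold (the dimmer Krtap5-5 probe).

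**Figure D1:**
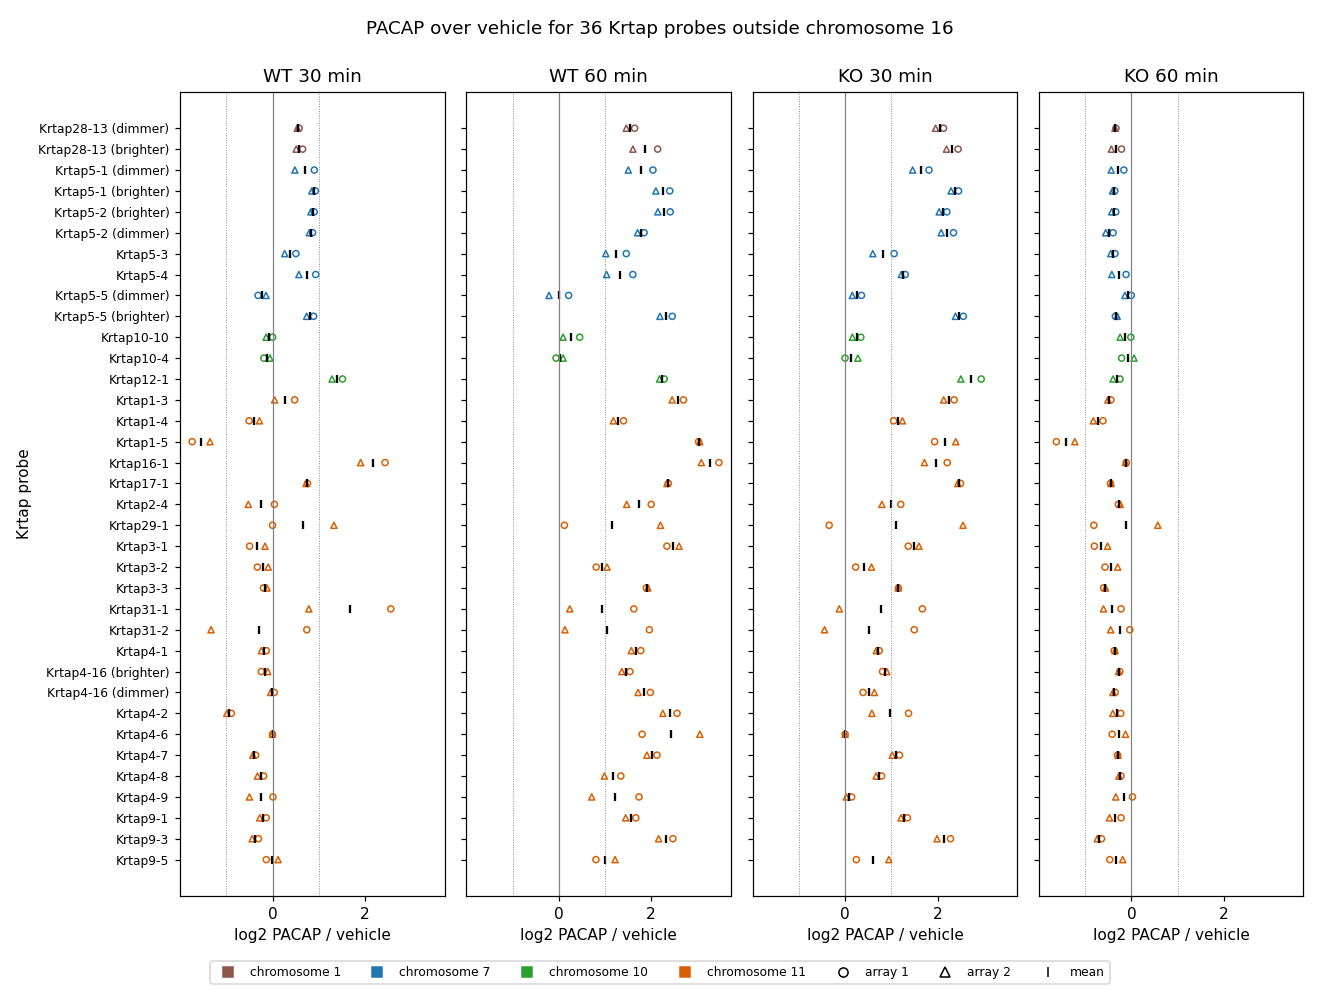
Log2 ratio of PACAP to vehicle (horizontal axis) for the 36 Krtap probes outside chromosome 16 (vertical axis) in the 4 comparisons. Circles and triangles are the 2 dye-swapped arrays of 1 pair of samples, black ticks their mean, colours the chromosome, and dotted lines mark 2-fold and 0.5-fold. Medians are 1.75 in WT mice at 60 min and 1.12 in KO mice at 30 min. In KO mice at 60 min the means of all 36 lie below 0, with opposite signs on the 2 arrays in 3 of them.

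The levels in each sample are given next. A level is the log2 of the normalised intensity, averaged over the swapped dyes, and levels of different probes are not compared. Krtap17-1, a cuticle gene, had levels of 10.15 in vehicle and 10.88 in PACAP skin of WT mice at 30 min, 10.15 and 12.48 at 60 min, 8.85 and 11.14 in KO mice at 30 min, and 12.87 and 12.42 at 60 min. Its vehicle sample of KO mice at 30 min was the lowest of the 8 and its vehicle sample of KO mice at 60 min the highest, and the 4 PACAP samples lay between them.

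The same order was found in most members. The vehicle sample of KO mice at 60 min was the highest of the 4 vehicle samples in 35 of 36 members, against 25.0% of all probes. The vehicle sample of KO mice at 30 min was the lowest of the 4 in 32 of 36, against 23.2%. Among all 8 samples, the former was highest in 34 of 36 members, against 13.1% of all probes, and the latter lowest in 31, against 9.79%. These orders were looked at after the values were seen.

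Among the vehicle samples the difference between KO mice at 60 and 30 min had a median of 2.45 over the members, whereas that between WT mice at 60 and 30 min was -0.02. The range of the 4 vehicle samples had a median of 2.45 over the members and 0.22 over all probes. The largest of the 4 PACAP to vehicle differences, on the same normalised scale, had a median of 1.45. In 36 of 36 members the range among vehicle samples was larger than the largest PACAP to vehicle difference. The same held for 77.0% of all probes.

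The PACAP samples followed time. Both PACAP samples at 60 min lay above both at 30 min in 32 of 36 members, against 17.9% of all probes, and in the vehicle samples this order was found in 16 of 36, against 22.8%. The PACAP samples at 60 min exceeded those at 30 min by a median of 1.28 in WT and 1.19 in KO mice. Between the genotypes, the PACAP samples differed by a median of 0.01 at 30 min and 0.02 at 60 min (KO minus WT), and the vehicle samples by -0.62 and 1.80. In these bulk samples, fewer cells of a type and less RNA per cell cannot be told apart.

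**Figure D2:**
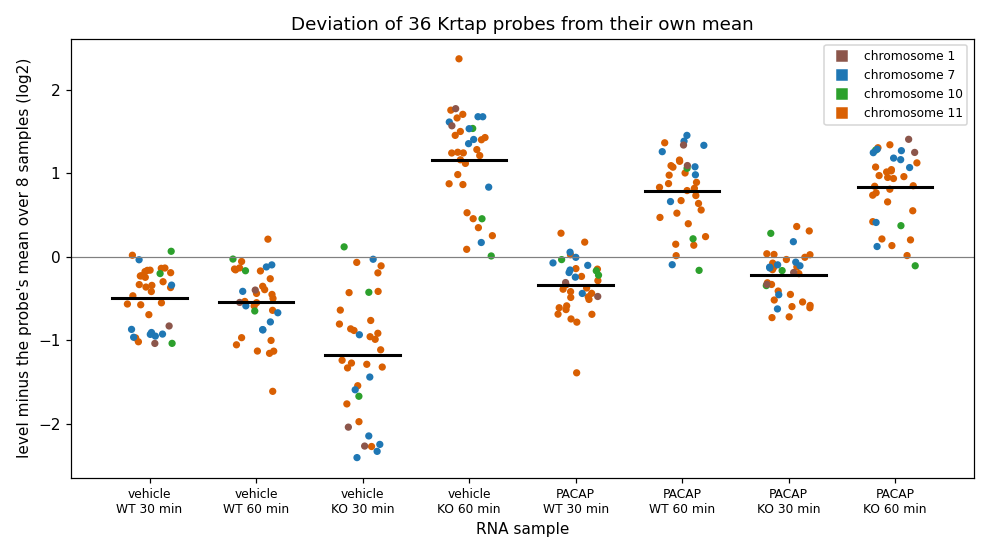
Level of each of the 36 members minus its own mean over the 8 RNA samples (vertical axis, log2) in each sample (horizontal axis). Points are probes coloured by chromosome and black bars their mean, which runs from -1.18 in vehicle skin of KO mice at 30 min to 1.16 in vehicle skin of KO mice at 60 min.

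Among the cortex genes, Krtap1-5 moved the most across samples. Its levels were 9.26 in vehicle and 8.01 in PACAP skin of WT mice at 30 min, 7.79 and 10.40 at 60 min, 7.86 and 9.76 in KO mice at 30 min, and 11.77 and 10.35 at 60 min. The range over the 8 samples was 3.98, and vehicle and PACAP samples overlapped. Krtap9-3, an ultrahigh sulfur protein gene, had levels of 10.81, 9.87, 9.03 and 12.66 in the vehicle samples and 10.49, 12.16, 11.03 and 11.96 in the PACAP samples, here and below in the order WT at 30 min, WT at 60 min, KO at 30 min and KO at 60 min. Krtap3-1, a high sulfur protein gene, had 9.83, 8.84, 8.23 and 11.70 in the vehicle samples and 9.56, 11.14, 9.54 and 11.12 in the PACAP samples. Both kept the order of Krtap17-1 at the extremes, with vehicle skin of KO mice at 30 min lowest and at 60 min highest. Krtap4-2 had 7.44, 7.15, 6.57 and 8.93 in the vehicle samples and 6.94, 8.78, 6.97 and 8.72 in the PACAP samples.

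Among the genes of the cuticle subfamilies, Krtap5-5 had, by its brighter probe, 10.09, 10.12, 8.59 and 12.67 in the vehicle samples and 10.89, 12.45, 10.87 and 12.28 in the PACAP samples. Krtap12-1 had 7.10, 7.48, 6.46 and 9.67 in the vehicle samples and 7.96, 9.19, 7.79 and 9.41 in the PACAP samples. In both genes the PACAP sample of WT mice at 30 min stood above its vehicle sample by less than 1 on the log2 scale. The next genes, Krtap28-13 and Krtap16-1, are assigned to neither cuticle nor cortex here. Krtap28-13 of chromosome 1 had 9.49, 9.98, 8.27 and 12.30 in the vehicle samples and 10.06, 11.87, 10.34 and 11.94 in the PACAP samples. Over the 8 samples its range was 4.04, that of Krtap5-5 4.08 and that of Krtap17-1 4.03. Krtap16-1 had 6.77, 6.74, 6.46 and 9.24 in the vehicle samples and 7.97, 8.77, 7.25 and 9.13 in the PACAP samples. Its ratio at 60 min in WT mice was 9.67-fold by the software's ratio and 4.08-fold on normexp and loess ratios, whose offset of 50 shrinks the ratios of dim probes.

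**Figure D3:**
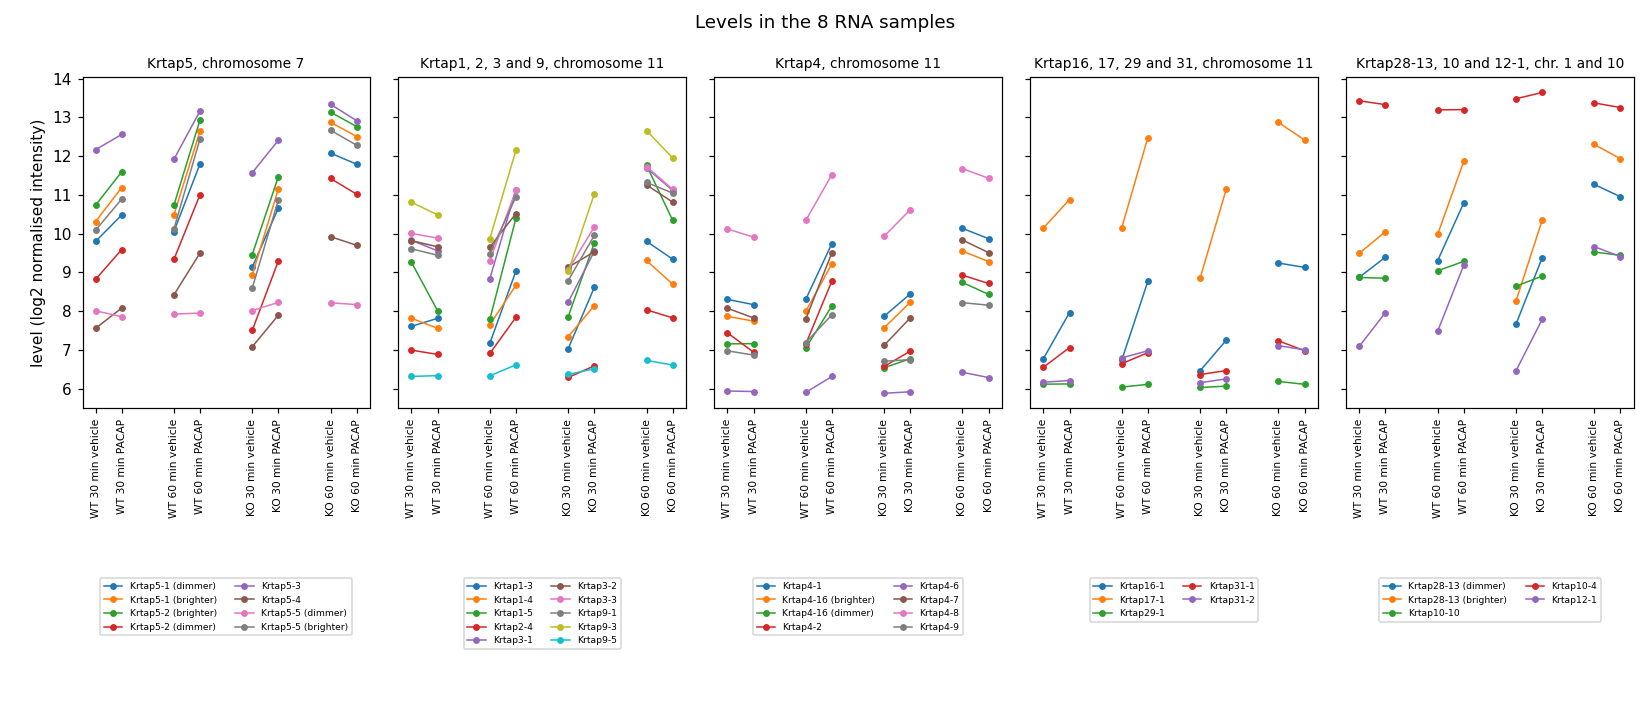
Levels (vertical axis, log2 normalised intensity) of the 36 members in the 8 RNA samples (horizontal axis), with a line joining the vehicle and the PACAP sample of each hybridised pair. In most members vehicle skin of KO mice at 30 min is lowest and at 60 min highest, and Krtap10-4 stays between 13.20 and 13.65.

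A few members stood outside this pattern. Krtap10-4 had levels of 13.43, 13.20, 13.48 and 13.38 in the vehicle samples and 13.33, 13.20, 13.65 and 13.26 in the PACAP samples, a range of 0.45, and ratios between 0.919-fold and 1.1-fold. Krtap10-10 had small ratios, between 0.915-fold and 1.21-fold, but its profile over the samples followed the members' mean (r = 0.958). The Krtap5-5 probes disagreed. The brighter, shown above, stood at 5.00-fold in WT mice at 60 min and 5.55-fold in KO mice at 30 min, and the dimmer, at chr7:149415808-149415867 on the same strand, at 1.00-fold and 1.19-fold with levels of 7.86 to 8.23. In the other genes with a pair of probes, both probes passed or missed the rule together in every comparison. They were Krtap5-1, Krtap5-2, Krtap28-13 and Krtap4-16. Krtap29-1 and Krtap4-6 were dim, and the arrays gave Krtap29-1 opposite signs in KO mice at 30 min (0.787-fold and 5.86-fold). Of the members that passed the rule, Krtap31-1 in WT mice at 30 min and Krtap2-4 in KO mice at 30 min (2.00-fold, against 1.23-fold on normexp and loess ratios) stood well above background in the lower sample on a single array (1 of 2), and the others on both arrays.

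Most members had similar profiles. Of the 35 members well above background on both arrays in at least 1 sample, 30 had a Pearson r above 0.9 with the mean of the members' centred profiles over the 8 samples, which share arrays in pairs, and the lowest were Krtap10-4 (-0.38) and the dimmer Krtap5-5 probe (0.46). Each member is itself part of that mean, and the share of all probes with such an r was not counted. Among 26348 probes, Krt31 (r = 0.998), a hair cortex keratin, had the most similar profile of those whose names do not start with Krtap. Krt27 (0.996), a keratin of the inner root sheath, Gm11568 (0.995) and a pair of chromosome 11 transcripts without a gene symbol (0.997 and 0.995) followed. These were set apart by name alone, so Gm11568 and the transcripts may themselves be keratin-associated protein genes.

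Tests were possible only across the 4 comparisons or the 8 samples. In limma fits with Benjamini-Hochberg adjustment, the mean PACAP effect over the 4 comparisons was called in 0 of 34 members fitted and in 0 of 30351 probes (0.0%). At an unadjusted p below 0.05, 11 members passed, all of them up, against 2.23% of all probes. That count was 1 without the WT comparison at 60 min and 1 without the KO comparison at 30 min (412 and 3086 of 30351 probes), 2 on normexp and loess ratios (695 probes) and 0 of 36 members with no filter on dim probes (1305 of 39421 probes), and it was 10 and 15 without either of the other comparisons. The smallest p among the members was that of Krtap16-1, at 1.82 ± 0.49 (SE) on the log2 scale, higher in 3 of 4 comparisons, with a limma p of 0.00922 and an adjusted p of 1.0. The difference of the PACAP effect between KO and WT mice was called in 0 members and 0.0% of probes, with 2 members at an unadjusted p below 0.05 against 3.2% of all probes. The smallest was again Krtap16-1, at -1.80 ± 0.70, limma adjusted p = 0.839. Without the WT comparison at 30 min, 9 members and 170 of 30351 probes were called, and 28 members, each with the lower effect in KO mice, had an unadjusted p below 0.05, as did 732 of all probes. Without the WT comparison at 60 min, 1 member and 83 probes were called, and 5 members, 3 of them with the higher effect in KO mice, and 1210 of all probes had an unadjusted p below 0.05. Without the KO comparison at 30 min, 0 members were called and 10, all with the lower effect in KO mice, and 740 of all probes had an unadjusted p below 0.05, and without the KO comparison at 60 min 0 were called and 0 members and 5121 of all probes had one. Each of these fits leaves 1 genotype with a single pair, which is assumed to vary like the 2 pairs of the other genotype. The difference between 60 and 30 min was called in 0 members and 0.0% of probes, with 0 members at an unadjusted p below 0.05, and the smallest limma p was that of Krtap31-1 (0.116). Leaving out 1 comparison called 0 members, and without either comparison at 30 min 0 members had an unadjusted p below 0.05. Without the WT comparison at 60 min, 17 members had such a p, all with the lower effect at 60 min (225 of 30351 probes), and without the KO comparison at 60 min 13 had one, all with the higher effect (312 probes). Here too the time point that lost a comparison holds a single pair. The interplay of genotype and time, in which the 4 comparisons differ most, leaves no residual degree of freedom and has no test.

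On the levels, KO against WT mice with time and treatment in the fit called 0 of 35 members, while 5.01% of all probes were higher and 4.89% lower. The smallest p was that of the dimmer Krtap5-5 probe, 0.22 ± 0.07 higher in KO mice with a limma adjusted p of 0.0877, and 2 members against 31.1% of all probes had an unadjusted p below 0.05. The level at 60 against 30 min was called in 9 of 35 members, all higher, against 10.1% of all probes higher and 8.46% lower. They were Krtap31-2, Krtap5-4, Krtap4-9, Krtap10-10, Krtap4-8, the brighter Krtap4-16 probe, Krtap4-1 and both Krtap28-13 probes. The smallest p was that of Krtap31-2, 0.78 ± 0.07 higher at 60 min with a limma adjusted p of 0.00625, and Krtap5-4 followed at 1.73 ± 0.31 with 0.0191. Krtap31-2 had levels of 6.17, 6.79, 6.16 and 7.11 in the vehicle samples and 6.21, 6.98, 6.25 and 7.00 in the PACAP samples. Krtap5-4 had 7.56, 8.42, 7.08 and 9.92 in the vehicle samples and 8.08, 9.5, 7.90 and 9.70 in the PACAP samples. In the same limma fit, 27 members, 26 of them higher, had an unadjusted p below 0.05, against 35.7% of all probes. The fit takes the vehicle and PACAP sample of a pair as independent, although they shared arrays. With the hybridised pair as a random block 4 members and 2837 of 26348 probes were called in the limma fit, and with vehicle samples alone 0 members and 0 probes (3 members and 6867 probes at an unadjusted p below 0.05). Without vehicle skin of KO mice at 60 min, 0 members and 0 of all probes were called (23 members and 6901 probes at an unadjusted p below 0.05), so the loss covered all probes and not the members alone. Leaving out vehicle skin of KO mice at 30 min gave 1 member and 911 probes, PACAP skin at 60 min of WT mice 1 and 228, PACAP skin at 60 min of KO mice 1 and 1252, PACAP skin of WT mice at 30 min 2 and 1709, PACAP skin of KO mice at 30 min 8 and 10660, vehicle skin of WT mice at 30 min 4 and 1529, and vehicle skin of WT mice at 60 min 14 and 1135, against 9 members and 4889 probes with all 8 samples.

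Other genes of the hair shaft were read beside the Krtap genes. Of 22 measured genes of the hair cortex and cuticle, 15 rose and 0 fell in WT mice at 60 min, 11 rose and 1 fell in KO mice at 30 min, 3 rose and 2 fell in WT mice at 30 min, and 0 rose and 1 fell in KO mice at 60 min, with medians of 3.07-fold, 1.94-fold, 1.17-fold and 0.718-fold. The cortex keratins Krt33a (9.56-fold), Krt33b (8.27-fold) and Krt34 (5.52-fold) rose at 60 min in WT mice, and at 30 min in KO mice they rose 4.62-fold, 4.57-fold and 3.51-fold. Krt40 (2.97-fold), Krt82 (2.95-fold) and Krt35 (2.20-fold), a keratin of the early hair matrix and cuticle, rose at 30 min in WT mice. Of 12 inner root sheath genes, 7 rose at 60 min in WT mice, among them Krt26 (7.86-fold), Krt71 (6.09-fold) and Tchh (5.71-fold), the gene of trichohyalin. In that list 5 rose at 30 min in KO mice, 2 at 30 min in WT mice, and 0 at 60 min in KO mice. Of 14 regulators of the follicle, 0 passed in any comparison, and their medians lay between 0.908-fold and 1.01-fold. The summed level of the hair cortex and cuticle genes ran from 14.13 in vehicle skin of KO mice at 30 min to 15.79 in vehicle skin of KO mice at 60 min, and that of the members from 14.55 to 16.62. The members' sum includes the probes of chromosome 10, among them Krtap10-4. These alone summed to 13.30 to 13.72 over the 8 samples, which narrows the range of the members' sum.

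The Krtap genes of chromosome 16 are given for comparison. Of their 28 probes, 26 rose at 60 min in WT mice, 24 rose and 1 fell at 30 min in KO mice, 12 fell at 30 min in WT mice and 21 fell at 60 min in KO mice. Their medians were 4.63-fold, 3.35-fold, 0.514-fold and 0.382-fold, in that order. The members outside chromosome 16 had 1 fall in each of the last 2 comparisons. The difference between the chromosomes was not tested.

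Markers of other tissues differed between the paired samples. The 8 skeletal muscle genes had a median of 2.09-fold at 30 min in WT mice (4 rose) and 0.479-fold at 30 min in KO mice (4 fell), and stood at 0.976-fold and 1.03-fold at 60 min in WT and KO mice. Their summed level was between 15.61 and 16.24 in the vehicle samples and between 15.21 and 16.66 in the PACAP samples. The 6 hepatocyte genes were higher in vehicle skin of WT mice at 60 min, at a summed level of 9.87 against 8.71 to 8.93 in the other 7 samples, and 5 of the 6 fell in that comparison. Epidermal Krt1 (0.455-fold) and Krt10 (0.365-fold) fell at 30 min in KO mice, where the epidermis list had a median of 0.658-fold, 1 of 12 rose and 2 fell. It had medians of 1.07-fold, 1.14-fold and 1.22-fold at 30 and 60 min in WT mice and at 60 min in KO mice, where 0, 2 and 3 of 12 rose and 0 fell. The lists of sebaceous gland (8 genes), eccrine gland (10), melanocyte (6) and adipocyte (5) had 0 genes past the rule in any comparison. The sebaceous list had 8 of 8 ratios above 1 in WT mice at 60 min (median 1.48-fold), where the Krtap genes rose, and also at 30 min in WT mice (1.19-fold) and at 60 min in KO mice (1.19-fold), against 4 of 8 at 30 min in KO mice (1.02-fold). Its median level lay between 8.08 and 8.58 in the 4 samples at 30 min and between 9.06 and 9.94 at 60 min, without overlap, while its summed level overlapped, at 14 to 14.46 and 14.16 to 14.87. The share of these tissues in the Krtap ratios was not tested.

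**Figure D4:**
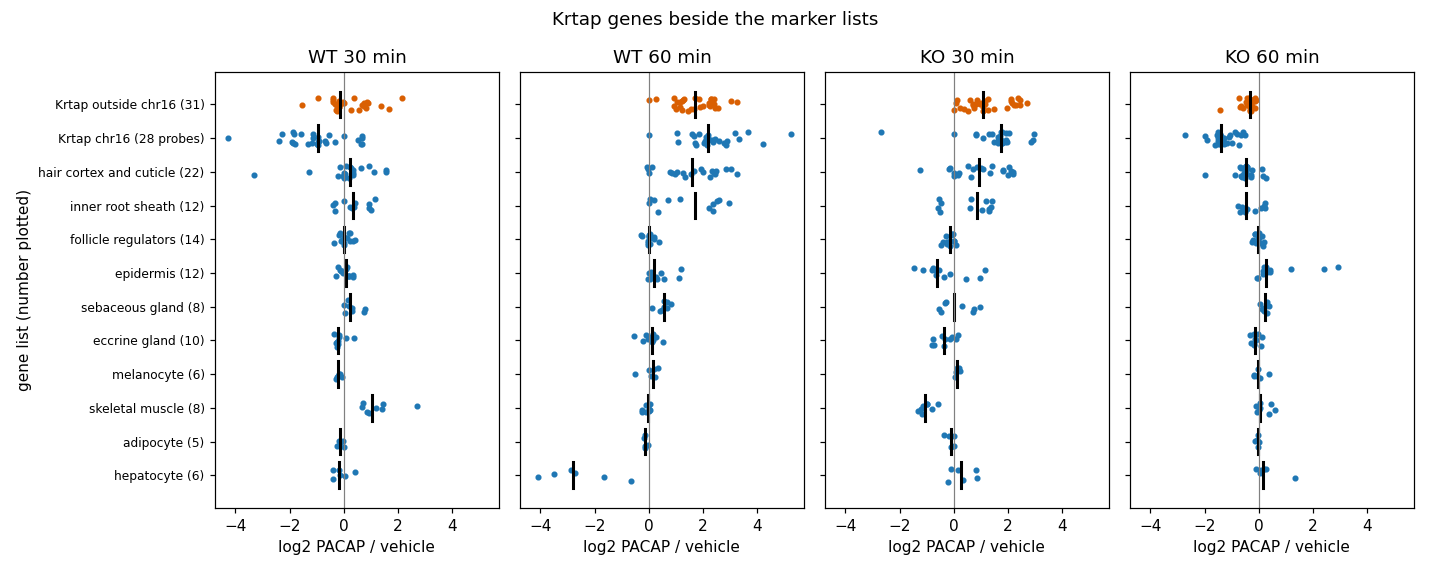
Log2 ratio of PACAP to vehicle (horizontal axis) for the Krtap genes outside chromosome 16 (orange, 1 probe a gene), the Krtap probes of chromosome 16 and 10 marker lists (blue, vertical axis) in the 4 comparisons. Points are genes or probes and black bars medians. The Krtap, hair and inner root sheath medians lie to the right in WT mice at 60 min and KO mice at 30 min, and the muscle median lies at 2.09-fold and 0.479-fold in WT and KO mice at 30 min.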

How the data were processed

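The members and gene lists were chosen with earlier results of these data known. The authors read the scans with Agilent Feature Extraction (12.0.3.1 in the file headers, 11.0.1.1 in the submitters' processing notes). The log10 ratios (red to green) that the authors deposited were background-corrected and LOWESS-normalised by the authors' software, which set 13.4% to 25.0% of them to 0 per array. The deposited p-value of a spot comes from the software's error model of 1 array. The deposited intensity values are mean signals, local backgrounds and processed signals per channel.

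Control spots (1377 per array) and spots marked as outliers were left out. Ratios were turned to PACAP over vehicle by the dyes in the labels, converted to log2 and averaged over spots and over both arrays. Levels used normexp background correction (offset 50), loess within arrays and Aquantile between arrays in limma 3.58.1 (R 4.3.3). Fits ran over all probes well above background, with an adjusted p below 0.05. Replicate numbers are dye orientations of the same RNA samples and pair no animals. Marker lists hold 1 probe a gene, the brightest.

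Named members were the 5 largest rises and falls past the rule per comparison, the member with the smallest p in each fit and genes whose probes disagreed. Subfamily examples and the genes named where a list is described beyond the 5 largest were chosen after their values were seen. Promoters came from RefSeq and probe positions from the files, in different builds that were not mixed. Python 3.11.15 with pandas 2.3.3 was used, and the steps were tested on simulated data. Alternatives were other p filters, normalisations, dim-probe filters, single arrays and samples left out.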

Additional observations from a re-analysis of the deposited data

Results flagged for a closer look

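Krtap1-5 passed the counting rule in all 4 comparisons and in opposite directions in the genotypes. At 30 min the ratio of PACAP to vehicle was -1.55 in WT and 2.17 in KO mice on the log2 scale, a difference of 3.71. At 60 min it was 3.04 in WT and -1.42 in KO mice, a difference of -4.46. The median of the members at 60 min was 1.75 in WT mice and -0.33 in KO mice, a difference of -2.08, with both arrays of each pair on its own side of 0. Each is 1 pair of samples per genotype and time, and the difference was not tested.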

How the results depend on the processing

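Of 138 values recomputed under the alternatives, 117 stayed within the limits set for them and 21 moved. With normexp and loess ratios, 1 member rose at 30 min in WT mice in place of 3, and the members' medians were 0.79 at 30 min in KO mice, 1.45 at 60 min in WT mice and -0.28 at 60 min in KO mice. The median at 30 min in WT mice was -0.10 with the filter on dim probes and -0.12 with 1 value a gene, and -0.049 and 0.0050 on single arrays, so it has no settled sign. On single arrays the medians were 1.18 to 1.32 at 30 min in KO mice, 1.59 to 1.87 at 60 min in WT mice and -0.40 to -0.34 at 60 min in KO mice. Leaving out 1 comparison gave 0 to 9 members for the PACAP effect of KO minus WT. For the level at 60 minus 30 min, leaving out 1 sample gave 0 to 14 members, the hybridised pair as a random block 4, vehicle samples alone 0 and no filter on dim probes 4. With the array number as a replicate block, 0 members were called in the fits of the PACAP effect, as without it. The cause of these moves was not tested. The lone pair of samples in each comparison and the dim probes limit what the ratios can show.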

Other observations

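Further hair keratins, Krt36, Krt84 and Krt85, all chosen after their values were seen, are given here by their values. Krt36 had levels of 10.92 in vehicle and 8.06 in PACAP skin of WT mice at 30 min, and its ratio of PACAP to vehicle was 0.10-fold there, 0.425-fold at 30 min in KO mice, 5.69-fold at 60 min in WT mice and 0.254-fold at 60 min in KO mice. Krt84 fell to 0.408-fold at 30 min in WT mice and stood at 1.02-fold, 1.74-fold and 0.548-fold at 30 min in KO mice, 60 min in WT mice and 60 min in KO mice. Krt85, an early keratin of the hair matrix, stood between 0.879-fold and 1.09-fold in all 4 comparisons, at levels of 10.67 to 11.42.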
